A study of Sus scrofa with 22 samples.

Results

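The 4 genes described here, HSPD1, HSP90B1, PDIA4 and DDIT3, take part in protein folding and in the response to its failure. They were taken by symbol, through the RefSeq accession of each array probe. The genes were chosen by their log2 ratios over the 4 groups of these same arrays, so their values are descriptions. No p-value is given for them, and counts of them past a threshold support nothing. The array carried 22 probes of these genes among 43603 probes, 12 for HSPD1, 8 for HSP90B1, 1 for PDIA4 and 1 for DDIT3. All 22 probes stood well above background on all 22 arrays, so no probe was lost to the filter on dim signal.

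Proteins made in a cell are folded by chaperones, which hold or enclose unfinished chains. HSPD1 forms the barrel of the mitochondrial chaperonin, HSP90B1 is the HSP90 of the endoplasmic reticulum (ER), and PDIA4 is an ER enzyme that forms and rearranges disulfide bonds. When unfolded protein accumulates in the ER, the unfolded protein response raises ER chaperones and, through its PERK and ATF4 arm, DDIT3 (also named CHOP), a transcription factor linked to cell death when the stress lasts. The lining of the small intestine makes large amounts of secreted and membrane protein and is replaced quickly from dividing crypt cells, which cytotoxic drugs damage.

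Small-intestinal RNA of 22 specific-pathogen-free Large White × Danish Landrace piglets, described as 3 days old, came from 2 separate experiments. In the doxorubicin (DOX) experiment 6 piglets received a single dose of this topoisomerase II inhibitor and 6 were untreated; in the BUCY experiment 5 received the DNA alkylating drugs busulfan and cyclophosphamide and 5 were untreated. The piglets had suckled their mother before arrival and, per the design text, carried a gastric tube and a jugular catheter placed under anaesthesia. The sources used here do not give the segment of the intestine, the drug doses, the time of sampling or the litters.

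Values are log2 ratios of the RNA of 1 piglet (Cy5) to a pool of all samples (Cy3) hybridised together, so a negative value means less than in the pool. The number of arrays limits the precision. The share of probes well above background was 59.7% to 72.5% per array. Of 12 enterocyte markers on the array 12 were measured, among them FABP1 and FABP2, intestinal fatty acid binding proteins. BUCY treated array 3 was the dimmest, with a median Cy5 signal of 88.0 against 103.5 to 210.0 on the other 21 arrays. On BUCY treated arrays 2 and 3 the probes of HSPD1 parted most widely, and the values of the 4 genes are given with and without both. In whole tissue, fewer cells of a type and less RNA per cell cannot be told apart.

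HSPD1 was lower in DOX treated piglets than in their controls. The brightest probe, A_72_P670158, gave -0.63, -0.81, -1.06, 0.01, -0.32 and -0.93 in the 6 DOX treated piglets, against 0.98, 0.21, 0.57, 0.51, 0.21 and 0.19 in the 6 untreated ones. The highest treated piglet, number 4, lay below the lowest untreated one, so the groups did not overlap. The means were -0.62 ± 0.40 and 0.44 ± 0.31 (SD, n = 6 each), a log2 difference of -1.07 (SE 0.20), or 2.10-fold lower after DOX. All 12 probes gave a negative difference, from -1.07 to -0.83, and for 11 of 12 the groups did not overlap.

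After BUCY the same probe averaged higher, with overlapping groups. It gave -0.01, -0.06, -0.84, -0.03 and 0.02 in the BUCY treated piglets, against -0.21, -0.57, -0.71, -1.26 and -0.41 in the untreated ones. Treated piglets 1, 2, 4 and 5 lay above every untreated piglet and number 3 fell within their range. The means were -0.18 ± 0.37 and -0.63 ± 0.40 (SD, n = 5 each), and the log2 difference was 0.45 (SE 0.22, 1.36-fold). Ordered by mean, untreated piglets of the DOX experiment stood highest, then BUCY treated, DOX treated and untreated piglets of the BUCY experiment. DOX treated piglets and untreated BUCY controls, at -0.62 and -0.63, did not differ beyond their spread.

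**Figure D1:**
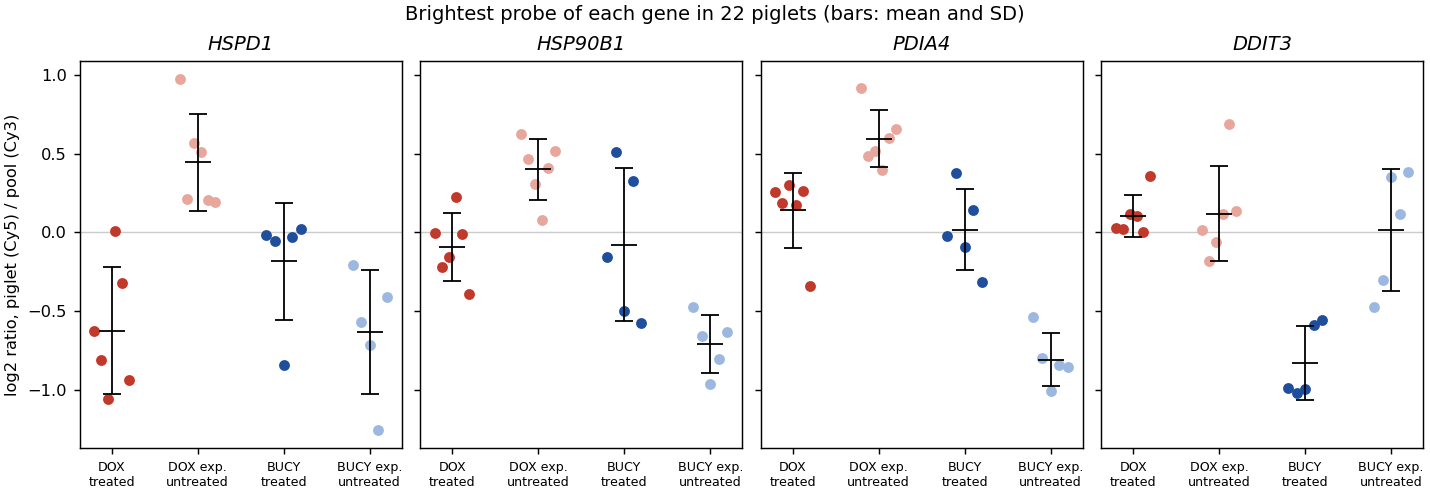
Log2 ratio of piglet to pool (vertical axis) for the brightest probe of each gene, 1 point per piglet in the 4 groups, with the mean and SD as black bars. HSPD1, HSP90B1 and PDIA4 have their highest means in the untreated DOX controls and their lowest in the untreated BUCY controls, apart from a near tie for HSPD1 between untreated BUCY controls (-0.63) and DOX treated piglets (-0.62); DDIT3 is lowest in BUCY treated piglets (-0.83).

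HSP90B1 was lower after DOX and higher after BUCY, with overlapping groups in both experiments. Probe A_72_P232707 gave 0.00, -0.22, -0.16, 0.23, -0.01 and -0.39 in DOX treated piglets, against 0.62, 0.46, 0.30, 0.08, 0.41 and 0.52 in untreated ones. The single overlap came from treated piglet 4 and untreated piglet 4. The log2 difference was -0.49 (SE 0.16, 1.41-fold lower), with means of -0.09 ± 0.21 and 0.40 ± 0.19 (SD, n = 6 each).

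In the BUCY experiment HSP90B1 gave -0.16, 0.51, -0.50, 0.33 and -0.57 in treated piglets, against -0.47, -0.66, -0.96, -0.80 and -0.63 in untreated ones. Treated piglets 3 and 5 lay within the untreated range and the other 3 above it. The means were -0.08 ± 0.48 and -0.71 ± 0.18 (SD, n = 5 each), a log2 difference of 0.63 (SE 0.17, 1.55-fold). Over its 8 probes the DOX difference ran from -0.72 to -0.34 and the BUCY difference from 0.49 to 1.06, and for 0 of 8 did the groups separate completely in either experiment.

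PDIA4 showed the smallest spread of the 3 chaperone and isomerase genes in the untreated groups. Its probe A_72_P366098 gave 0.26, 0.19, 0.30, 0.17, 0.26 and -0.34 in DOX treated piglets, against 0.91, 0.48, 0.52, 0.39, 0.60 and 0.66 in untreated ones. The groups did not overlap, and treated piglet 6 lay well below the other 5. The log2 difference was -0.45 (SE 0.12, 1.37-fold lower), with means of 0.14 ± 0.24 and 0.59 ± 0.18 (SD, n = 6 each).

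After BUCY, PDIA4 gave -0.03, 0.38, -0.09, 0.14 and -0.31 in treated piglets, against -0.54, -0.80, -1.01, -0.84 and -0.85 in untreated ones. Every treated piglet lay above every untreated one. The means were 0.02 ± 0.26 and -0.81 ± 0.17 (SD, n = 5 each), and the log2 difference was 0.82 (SE 0.13, 1.77-fold).

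DDIT3, the stress transcription factor, followed another pattern. Its probe A_72_P440751 gave 0.03, 0.02, 0.12, 0.10, 0.00 and 0.36 in DOX treated piglets, against 0.01, -0.18, -0.06, 0.12, 0.69 and 0.14 in untreated ones. The groups lay over each other, and the log2 difference was -0.01, with a 95% interval from -0.33 to 0.30.

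In BUCY treated piglets DDIT3 gave -0.99, -1.02, -0.99, -0.59 and -0.56, against -0.47, -0.30, 0.35, 0.11 and 0.39 in their untreated controls. All 5 treated values were below all 5 untreated ones. The means were -0.83 ± 0.23 and 0.02 ± 0.39 (SD, n = 5 each), a log2 difference of -0.84 (SE 0.17, 1.80-fold lower). DDIT3 is the dimmest of the 4, at the 54.4th percentile of brightness among tested genes, where the others lie between the 93.7th and the 98.6th. Agilent's own processed log ratios, which carry no offset, gave a BUCY difference of -1.35.

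After DOX 1 of 4, HSPD1, was past limma's adjusted p of 0.05, where 0.848% of 24766 tested genes were. After BUCY HSP90B1, PDIA4 and DDIT3 were, 3 of 4, where 17.3% of tested genes were. Groups did not overlap for 2 of 4 after DOX (HSPD1 and PDIA4) and for 2 of 4 after BUCY (PDIA4 and DDIT3), against 2.61% and 6.56% of tested genes. These comparisons entered the choice of the genes, so the counts support nothing.

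The BUCY effect minus the DOX effect was 1.52 (SE 0.30) for HSPD1, 1.12 (SE 0.23) for HSP90B1, 1.28 (SE 0.18) for PDIA4 and -0.83 (SE 0.23) for DDIT3 on the log2 scale, all 4 past the threshold, where 5.89% of tested genes were. Under 38 alternative settings DDIT3 was past it in 23, against 36 for HSPD1, 36 for HSP90B1 and 37 for PDIA4. Most of these settings refit the same data without 1 array, and some return the reported values, so they are not independent. With each array centred on its median in place of the loess used here, the differences of the 4 genes were 1.16, 0.69, 0.95 and -0.93, and 0 of 4 were past the threshold. The 5.89% holds for loess. Over all alternatives 91 to 2392 tested genes passed, against 1458 as reported. The count of 91 came with median centring and without BUCY treated arrays 2 and 3. This range does not give the share under median centring alone. Whether the lost calls are particular to these genes was not tested. The genes were chosen on these groups, so none of these counts supports anything about them.

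Untreated BUCY piglets minus untreated DOX piglets gave -1.08 (SE 0.21) for HSPD1, -1.10 (SE 0.17) for HSP90B1, -1.40 (SE 0.13) for PDIA4 and -0.10 (SE 0.16) for DDIT3. For the first 3 of these genes the groups did not overlap, 3 of 4, where 17.9% of tested genes showed no overlap, and the same 3 were past the threshold, where 25.2% were. These groups too entered the choice of the genes. The drug differences of opposite sign for these 3 genes were thus taken from control groups at different levels. By its brightest probe, HSP90B1 averaged -0.08 in BUCY treated and -0.09 in DOX treated piglets. HSPD1 averaged -0.18 and -0.62 in these groups, and PDIA4 0.02 and 0.14. Experiment, litter and handling cannot be told apart in this comparison.

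The BUCY difference of HSPD1, HSP90B1 and PDIA4 depended on how each array was scaled, and that of HSPD1 changed its sign. Loess removes a trend of the ratio with brightness and median centring does not. With each array centred on its median in place of loess, the BUCY difference was -0.13 for HSPD1, 0.01 for HSP90B1, 0.31 for PDIA4 and -1.01 for DDIT3, of which DDIT3 alone stayed past the threshold, while the median of all tested genes moved to -0.12. Over all alternatives 383 to 6290 tested genes passed after BUCY, against 4280 as reported. The count of 383 came with median centring and without treated arrays 2 and 3, not with median centring alone. Of the BUCY arrays, treated array 3 moved furthest for HSPD1, HSP90B1 and PDIA4. Under median centring it read -2.38 for HSPD1 and -1.63 for PDIA4, against -0.84 and -0.09 after loess. Other BUCY arrays moved too, untreated ones among them, so treated array 3 was not the whole of the change. With median centring and without treated arrays 2 and 3, the differences were 0.51, 0.45 and 0.65, and that of DDIT3 was -0.78. Without those arrays but with loess they were 0.62, 0.57, 0.74 and -0.73, with HSP90B1 no longer past the threshold. The DOX differences under median centring were -1.28, -0.68, -0.64 and -0.08, with HSPD1 no longer past the threshold, where 89 tested genes were, against 210 as reported.

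**Figure D2:**
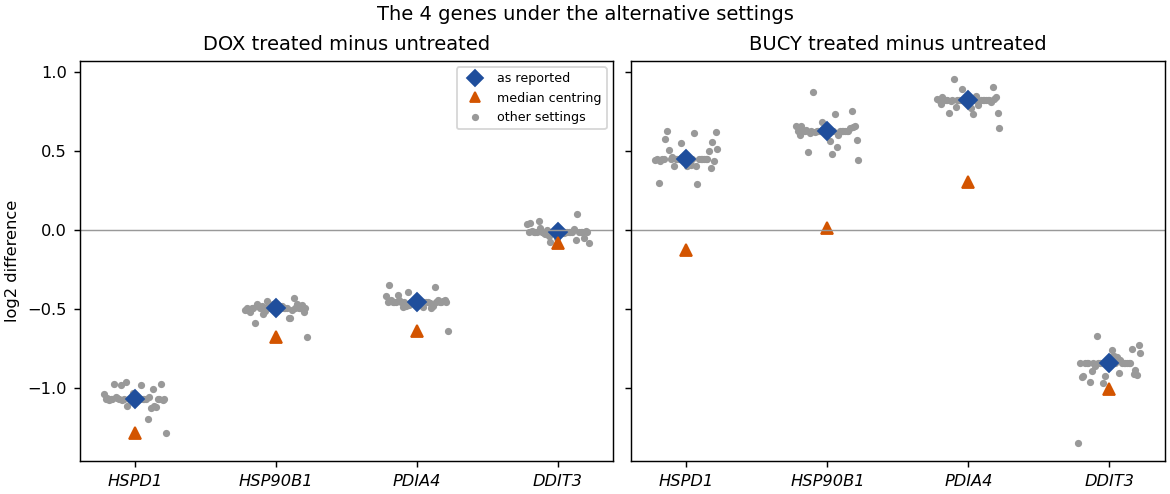
Log2 difference of treated minus untreated piglets (vertical axis) for each gene in both experiments, as reported (diamond), with median centring (triangle) and under each other setting (grey points, leave-one-out fits among them). The BUCY triangles lie at -0.13, 0.01 and 0.31 for HSPD1, HSP90B1 and PDIA4, below the other settings, while DDIT3 stays negative throughout.

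Within slides, which hold 1 to 3 piglets of a group, HSPD1 differed by -1.38 to -0.92 after DOX and by 0.43 to 0.82 after BUCY. After DOX HSP90B1 differed by -0.55 on slide 1, by -0.52 on slide 2 and by -0.14 on slide 6, the last from 3 treated piglets and 1 untreated piglet. After BUCY it differed by 0.06 on slide 7, from 1 BUCY treated and 1 untreated piglet, and by 0.72 and 0.81 on the other slides holding both BUCY groups. PDIA4 differed by 0.54 to 0.98 and DDIT3 by -1.34 to -0.91 within those slides. Within the 2 scan days that hold both DOX groups HSPD1 differed by -1.30 and -0.72.

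The probes of a gene target the same transcripts and are not replicates, but they show where the arrays disagree. Pairs of HSPD1 probes had a median r of 0.98 over the 22 arrays and a lowest r of 0.40; for HSP90B1 the values were 0.98 and 0.76. The 3 HSPD1 probes A_72_P619640, A_72_P110291 and A_72_P601078, singled out after their values were seen, read 0.43 to 0.89 on BUCY treated array 3, where the remaining 9 read -1.01 to -0.63. On treated array 2 they read 1.07 to 1.19, against -0.06 to 0.27 for the 9. On treated array 4 the split was smaller, 0.33 to 0.66 against -0.03 to 0.22. On treated arrays 1 and 5 it ran the other way, with -0.19 to -0.11 against -0.09 to 0.09 on array 1 and -0.31 to 0.05 against 0.02 to 0.23 on array 5.

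**Figure D3:**
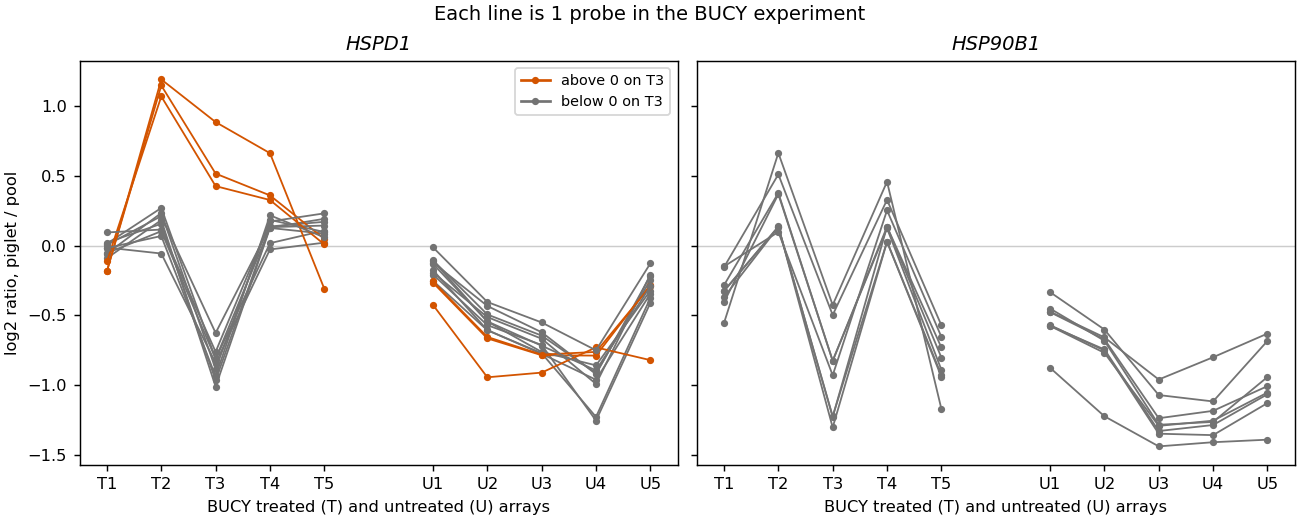
Log2 ratio (vertical axis) of each HSPD1 and HSP90B1 probe, 1 line per probe, on the 5 BUCY treated arrays (T1 to T5) and the 5 untreated arrays (U1 to U5); orange marks probes above 0 on T3. HSPD1 probes part widely on T2 and T3, spanning 1.25 and 1.90 log2 units, and run close together on T1, spanning 0.28.

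Those 3 probes gave the largest BUCY differences of HSPD1, 0.94, 1.22 and 0.89, against 0.34 to 0.52 for the other 9. Only for these 3 of 12 did the BUCY groups not overlap. The 3 were picked by their high readings on treated array 3, which enter both comparisons, so neither is independent of the choice. Without treated arrays 2 and 3 all 12 probes gave 0.54 to 0.82. Among HSP90B1 probes A_72_P588721 stood out likewise, with a BUCY difference of 1.06 that became 0.85 without both arrays, against 0.57 to 0.62 for the other 7. On the 8 arrays of the third scan day, treated and untreated alike, A_72_P110291 was the lowest HSPD1 probe and A_72_P588721 the lowest HSP90B1 probe. This was not particular to that day. On the first scan day it also held for untreated arrays 1 to 3 of both experiments and for BUCY treated array 1. HSPD1 probes spanned 0.14 to 0.54 log2 units on those arrays, against 0.54 to 1.21 on the third scan day. A_72_P110291 read -0.92, -1.05 and -1.78 in DOX treated piglets 4, 5 and 6, against -0.77 in untreated piglet 5 of that experiment, where the highest HSPD1 probe read 0.44. A_72_P588721 read -0.60 in that untreated piglet, where the highest HSP90B1 probe read 0.57, and the spread of its 8 probes was widest there. What makes these probes differ was not tested.

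**Figure D4:**
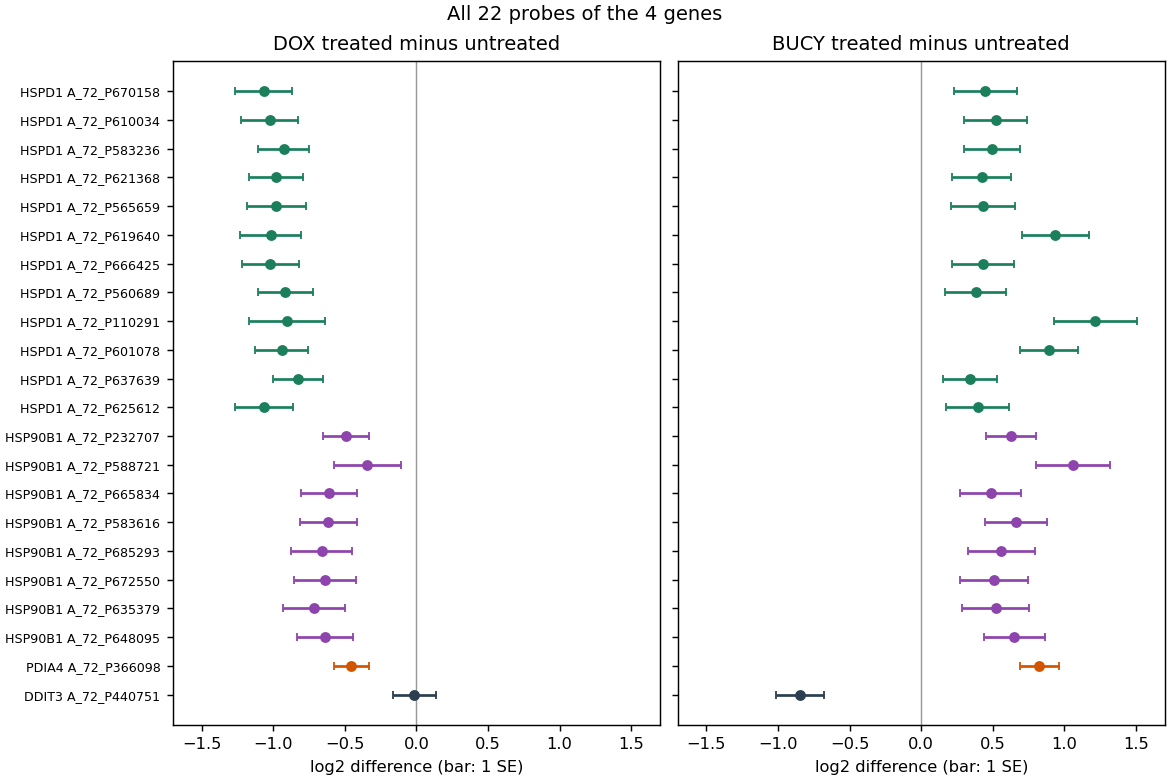
Log2 difference of treated minus untreated piglets (horizontal axis, bars of 1 SE) for all 22 probes, by gene from HSPD1 at the top to DDIT3 at the bottom. HSPD1 probes lie between -1.07 and -0.83 after DOX, and between 0.34 and 1.22 after BUCY with 3 probes to the right of the rest.

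Across the 22 arrays HSP90B1 and PDIA4 were most alike of the 4 genes, with r = 0.93, and 0.80 after the group means were taken out. HSPD1 correlated with HSP90B1 at 0.72 (0.48 within groups) and with PDIA4 at 0.63 (0.34 within groups). DDIT3 had r between -0.06 and 0.00 with the other 3, and -0.43 to -0.18 within groups. These values share arrays, pool and group differences and are descriptions.

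Of all genes with a symbol, HSPE1, the mitochondrial co-chaperonin that caps the HSPD1 barrel and whose gene lies next to HSPD1, was most like HSPD1 (r = 0.93, 0.86 within groups, 22 arrays). MDH2, a malate dehydrogenase of the mitochondrial citric acid cycle, and UQCRB, a subunit of respiratory complex III, followed at 0.85 and 0.83 (0.74 and 0.73 within groups). Most like HSP90B1 after PDIA4 were DYNLL1, a dynein light chain (0.90, 0.67 within groups), and DNAJB11, an ER co-chaperone (0.90, 0.74 within groups). Most like PDIA4 after HSP90B1 were LPL, lipoprotein lipase (0.92, 0.73 within groups), and JPT1 (0.92, 0.49 within groups). Among the genes most like DDIT3 were SLA-5 (0.79, 0.38 within groups) and PLBD1 (0.78, 0.61 within groups).

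Beyond the 4 genes, 9 lists of protein folding genes held 327 genes, of which 72 were tested here. HSPA5 and HSPA9, the main HSP70 chaperones of the ER and mitochondria, are not analysed here. After DOX 0 of 72 rose and 1 fell, HSPE1, and the median log2 difference was -0.10 against 0.01 over all tested genes. After BUCY 20 of 72 rose and 2 fell, 30.6% against 17.3% of all tested genes, with a median of 0.18 against 0.00 (limma, Benjamini-Hochberg over 24766 genes). With median centring 3 of 72 passed after BUCY (2 higher, 1 lower), and without treated arrays 2 and 3 8 passed, all higher. Of the genes named below, HSPE1, CANX, CALR, TXNIP, PHGDH, GANAB, SEC61A1, UBE2J1, HSP90AA1, UNC45A, TCP1, PFDN4 and TBCC lost their BUCY call without those arrays.

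HSPE1, partner of HSPD1, averaged -0.56 ± 0.29 in DOX treated and 0.16 ± 0.24 in untreated piglets (SD, n = 6 each), and it fell 1.65-fold (log2 difference -0.72, limma adjusted p = 0.0377). In the BUCY experiment it averaged -0.17 ± 0.30 in treated and -0.73 ± 0.38 in untreated piglets (SD, n = 5 each) and rose 1.48-fold (0.57, limma adjusted p = 0.0351), a direction that median centring turned to -0.06. The effects differed by 1.29 (limma adjusted p = 0.00407; 0.429 with median centring). The DOX call was lost when DOX treated piglet 1, 2, 3 or 6 or untreated piglet 1, 2, 3, 4 or 6 was left out (adjusted p = 0.0609 to 0.110), and the BUCY call without BUCY treated piglet 1, 2 or 4 or untreated piglet 3, 4 or 5 (adjusted p = 0.0508 to 0.107).

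Of 8 other ER chaperones, 3 rose after BUCY and 0 passed after DOX. CANX, a lectin chaperone of glycoproteins in the ER membrane, averaged 0.24 ± 0.80 in BUCY treated and -0.80 ± 0.43 in untreated piglets (SD, n = 5 each) and rose 2.05-fold (limma adjusted p = 0.0173). CALR, its soluble counterpart, rose 2.07-fold (limma adjusted p = 0.0232) and DNAJB11 1.54-fold (limma adjusted p = 0.0204). After DOX the smallest p in this list was that of SERPINH1, the collagen chaperone, at -0.64 (limma adjusted p = 0.0993). All 3 BUCY calls were lost with median centring; single arrays ended them too, treated piglet 2 or 3 or untreated piglet 2 for CANX (adjusted p = 0.0522 to 0.0653), treated 2, 3 or 4 or untreated 1 or 2 for CALR (0.0508 to 0.0860) and treated 2 or 4 for DNAJB11 (0.0528 to 0.0769).

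Among 3 ER disulfide isomerases and oxidases, ERO1A, the oxidase that recharges protein disulfide isomerases, rose 1.88-fold after BUCY, at 0.28 ± 0.58 in treated and -0.63 ± 0.13 in untreated piglets (SD, n = 5 each; limma adjusted p = 0.00314). After DOX 0 of 3 passed, and ERP44, which retains ER proteins, had the smallest p at -0.25 (limma adjusted p = 0.463). After BUCY ERP44 gave -0.30.

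None of 8 stress sensors and transcription factors, 0 of 8, passed in either drug comparison by limma. ATF4, which acts upstream of DDIT3, differed by -0.02 after DOX (limma adjusted p = 0.974) and by 0.23 after BUCY (limma adjusted p = 0.349). XBP1, which turns on ER chaperones once its RNA is spliced, differed by 0.06 after DOX (limma adjusted p = 0.838). After BUCY it differed by 0.33 (limma adjusted p = 0.0548), and by -0.24 with median centring. In 7 of 39 alternatives it passed, the authors' table and quantile normalisation of both colours among them (smallest limma adjusted p = 0.0278). Its value ran up to 1.01, with Cy5 alone. The array does not separate spliced from unspliced XBP1. CREB3, an ER-bound transcription factor, was at 0.39 after DOX (limma adjusted p = 0.182).

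Of 10 genes listed as ATF4 or DDIT3 targets, 3 rose after BUCY while DDIT3 itself was lower. GDF15, a stress-induced cytokine, averaged 0.14 ± 0.83 in BUCY treated and -1.95 ± 0.30 in untreated piglets (SD, n = 5 each) and rose 4.24-fold (log2 difference 2.08, limma adjusted p = 7.21e-04), with no overlap. TXNIP, an inhibitor of thioredoxin, rose 2.34-fold (limma adjusted p = 0.00601) and PHGDH, the first enzyme of serine synthesis, 2.16-fold (limma adjusted p = 0.0359). After DOX 0 of 10 passed, and PHGDH averaged 0.84 ± 0.61 in treated and -0.16 ± 0.26 in untreated piglets (SD, n = 6 each; limma adjusted p = 0.149). The TXNIP and PHGDH calls were lost with median centring, and that of PHGDH also without BUCY treated piglet 2 or 3 or untreated piglet 1, 2, 3 or 5 (adjusted p = 0.0565 to 0.118).

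Of 11 genes for import into the ER and N-glycosylation, 6 rose after BUCY and 0 passed after DOX, where DAD1, a subunit of oligosaccharyltransferase, had the smallest p (-0.30, limma adjusted p = 0.349). RPN2, a further subunit of that enzyme, averaged -0.34 ± 0.11 in BUCY treated and -1.02 ± 0.21 in untreated piglets (SD, n = 5 each), a 1.60-fold rise (limma adjusted p = 1.93e-04). DDOST, of the same complex, rose 1.44-fold (limma adjusted p = 0.00188), GANAB, a glucosidase of new glycoproteins, 1.42-fold (limma adjusted p = 0.00357) and SEC61A1, the import channel, 1.61-fold (limma adjusted p = 0.0159). With median centring these 4 calls were lost, and DDOST (-0.05) and GANAB (-0.06) changed direction. SEC61A1 also missed without BUCY treated piglet 2 or 3 (adjusted p = 0.0537 and 0.0540).

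Among 6 genes of ER-associated degradation, VCP, the ATPase that pulls proteins out of the ER membrane, rose 1.59-fold after BUCY (limma adjusted p = 0.00173; 0.780 with median centring). UBE2J1, a ubiquitin-conjugating enzyme of the ER, fell 1.62-fold (limma adjusted p = 0.0452), a call lost when any of 19 of the 22 arrays was left out (adjusted p = 0.0503 to 0.146). After DOX 0 of 6 passed and DERL1, a membrane protein of the same route, was at -0.39 (limma adjusted p = 0.247).

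In the cytosol, 2 of 15 heat shock proteins and co-chaperones rose after BUCY. HSP90AA1, the inducible cytosolic HSP90, averaged 0.67 ± 1.38 in treated and -0.97 ± 0.59 in untreated piglets (SD, n = 5 each), 3.12-fold higher (limma adjusted p = 0.0174). It lost its call without treated piglet 2 or 3 (adjusted p = 0.0620 and 0.0666), with median centring and with slide as a fixed block. The call was also lost with the mean of all its probes in place of the brightest. That mean gave a log2 difference of 0.61, against 1.64 for the brightest probe. UNC45A, a co-chaperone of myosin folding, rose 1.35-fold (limma adjusted p = 0.0116), with -0.09 under median centring. After DOX 0 of 15 passed, and HSBP1, which binds heat shock factor, was at -0.63 (limma adjusted p = 0.195).

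Of 8 genes of the cytosolic chaperonin, the counterpart of the HSPD1 barrel, and of prefoldin and tubulin folding, 3 rose and 1 fell after BUCY. TCP1 and CCT3, both chaperonin subunits, rose by 0.59 and 0.52 on the log2 scale (limma adjusted p = 0.0104 and 0.00233), and PFDN4, a prefoldin subunit, 1.36-fold (limma adjusted p = 0.0243); the 3 values under median centring were -0.01, -0.08 and -0.04. TBCC, a tubulin folding cofactor, fell 1.28-fold (limma adjusted p = 0.0480), a call lost without any of 19 of the 22 arrays (adjusted p = 0.0523 to 0.146). The PFDN4 call was lost without BUCY treated piglet 2 or 5 or untreated piglet 4 (adjusted p = 0.0545 to 0.0891). All 8 of 8 were lower after DOX without passing, TCP1 at -0.39 with the smallest p (limma adjusted p = 0.183).

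**Figure D5:**
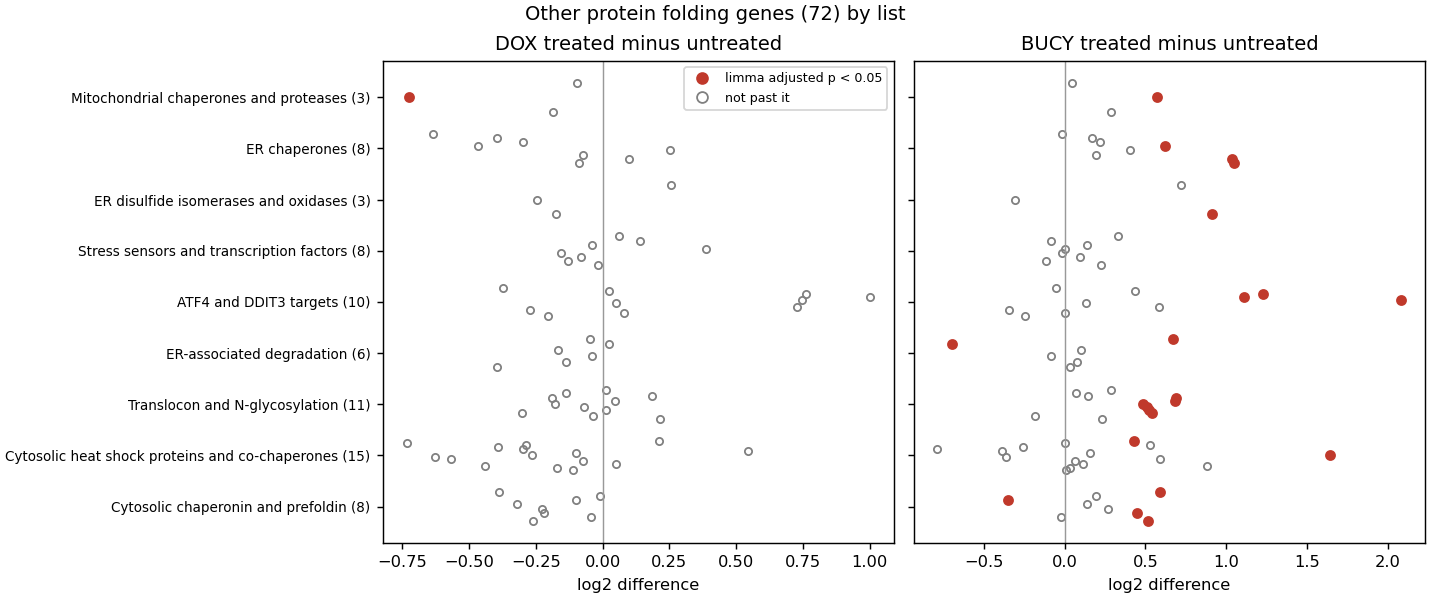
Log2 difference of treated minus untreated piglets (horizontal axis) for the 72 tested genes of the 9 lists, 1 point per gene; filled red points passed limma's adjusted p of 0.05 over all tested genes. After DOX 1 point is filled, HSPE1 at -0.72; after BUCY 22 are, 20 of them to the right of 0.

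The effects of both drugs differed by limma's interaction test for 13 of 72 listed genes, all more positive after BUCY. That is 18.1%, against 5.89% of tested genes. CCT3 (0.78, limma adjusted p = 0.00298) and TCP1 (0.98, limma adjusted p = 0.00636) had the smallest p beside HSPE1, though not the largest differences. With median centring 0 of 72 passed. Between the untreated groups 27 of 72 were lower and 1 higher in the BUCY experiment, 38.9% against 25.2% of tested genes. RPN2 (-1.03, limma adjusted p = 1.63e-07), DNAJB11 (-1.52, limma adjusted p = 1.46e-06) and CCT3 (-0.83, limma adjusted p = 3.43e-06) were lower there, and VEGFA, an angiogenic factor, was higher (0.81, limma adjusted p = 0.0348). VEGFA missed the threshold without untreated DOX piglet 1, 3 or 4 or untreated BUCY piglet 3 or 4 (adjusted p = 0.0658 to 0.122).

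Markers of dividing cells moved in the same directions as the chaperones. Of 8 such markers, among them CCNB1 and CDK1, 8 were lower after DOX (0 past the threshold, median -0.39), 7 rose after BUCY (median 1.06) and 8 were lower in untreated BUCY than in untreated DOX piglets (median -1.67). Their mean level per piglet ran from -0.36 to 0.32 in DOX treated and from 0.20 to 0.85 in untreated piglets, and from -0.53 to 0.49 in BUCY treated and from -1.45 to -0.86 in untreated ones. Their part in the result was not tested.

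Markers of other cells moved as well. Of 14 T and NK cell markers 3 fell after DOX and 12 after BUCY, with mean levels of -1.53 to -1.06 in BUCY treated and -0.34 to 0.42 in untreated piglets. Of 12 enterocyte markers 4 fell after BUCY and 0 passed after DOX. Of the B cell markers MS4A1 was above background on 3 arrays, and of the pancreatic markers CPB1 on 1 and PNLIP on 4. The part of these cells in the values of DDIT3 and of the chaperones was not tested.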

How the data were processed

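Per the labels, each array carries Cy5-labelled RNA of 1 piglet and a Cy3-labelled pool of all samples, with no dye swap. The deposited scanner files hold median spot and background intensity, quality flags and a log10 ratio of processed signals, made with Agilent Feature Extraction 10.7.3.1, per the file headers. The authors' deposited value table holds log2 ratios; the submitters' processing notes name Agilent Feature Extraction and limma without steps. Each array of that table matched the loess and quantile normalised ratios with r of at least 0.999, so it served as an alternative.

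Median signals were corrected by normexp (offset 50) and loess within arrays in limma 3.58.1 and R 4.3.3; 3 to 52 outlier spots per array were dropped and 0 spots were saturated. Of 43603 probes 6700 received one of 3029 symbols through RefSeq (Sscrofa11.1) accessions. Each gene took its brightest probe and was tested where Cy5 stood well above background on 5 or more arrays, giving 24766 genes, 2652 with a symbol. The other probes of the 4 genes were fitted among all probes. One model (lmFit, eBayes, two-sided; 18 residual and 3.38 prior degrees of freedom) gave group means for all 22 arrays, with Benjamini-Hochberg adjustment across every tested gene. The highest correlation between arrays was 0.832. No pair known to be a repeat sets a scale for this value, so by itself it excludes no repeat. Labels give piglets no numbers shared between groups; the replicate numbers used follow array order. That piglets are separate animals is taken from the design text.

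In simulated BUCY data with 200 of 24766 genes changed, 90.0% of changes of 1 log2 unit and 96.0% of changes of 2 were recovered, with 11 false calls. Noise was drawn independently for each gene and array after normalisation, so array quality and scaling had no part in it. The real BUCY comparison had 4280 genes past the threshold, so these rates do not carry over to it. The 4 genes and the lists were chosen with earlier results of these data known. Named genes were up to 4 per list, direction and drug by smallest p, the best of a list where none passed, fixed partners, and the 3 genes most like each of the 4; some items are not reported here. Alternatives changed background correction, scaling, colour, source, filters, probe choice, batch terms, weights and arrays; scan day, quantile normalisation of both colours and leaving out BUCY treated arrays 2 and 3, alone and with median centring, were added after seeing the data. Figures used matplotlib 3.10.9 in Python 3.11.15.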

Additional observations from a re-analysis of the deposited data

Results flagged for a closer look

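Single piglets lay far from the rest of their group by Dixon's criterion, which chance meets in about 1 of 20 groups. For the 4 genes these were HSPD1 in BUCY treated piglet 3 (-0.84, the others -0.06 to 0.02), PDIA4 in DOX treated piglet 6 (-0.34, the others 0.17 to 0.30), DDIT3 in the same piglet (0.36, the others 0.00 to 0.12) and DDIT3 in untreated piglet 5 of the DOX experiment (0.69, the others -0.18 to 0.14).

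Among listed genes, DOX treated piglet 3 stood apart for XBP1 (-0.45) and DAD1 (-0.51), piglet 4 for DNAJB11 (0.30) and piglet 6 for DERL1 (-0.57). Untreated piglets of the DOX experiment stood apart for GDF15 (-0.93, piglet 2) and HSBP1 (-7.4e-04, piglet 4, the others 0.43 to 0.64), and untreated BUCY piglets for DDOST (-0.22, piglet 3) and PFDN4 (-0.96, piglet 4).

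The BUCY effect minus the DOX effect passed limma's interaction test for HSPE1 (1.29), DNAJB11 (1.09), ERO1A (1.09), TCP1 (0.98), SEC61A1 (0.88), DAD1 (0.84), CCT3 (0.78), VCP (0.72), PFDN4 (0.66), RPN2 (0.63), GANAB (0.58) and DDOST (0.51), all on the log2 scale. For HSP90B1 (1.12) and PDIA4 (1.28) piglets of both experiments lay on opposite sides of their controls' mean, a description only, since these genes were chosen for their values in these groups, so that passing a threshold supports nothing.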

How the results depend on the processing

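No paired analysis was possible because the labels give the groups no shared replicate numbers. Normalising only brightness between arrays (Aquantile) leaves ratios as they are, so it gave the reported values. Median centring gave BUCY differences of -0.13 for HSPD1, 0.014 for HSP90B1 and 0.31 for PDIA4, and reversed CCT3 (-0.076), DDOST (-0.045), GANAB (-0.063), HSPE1 (-0.056), PFDN4 (-0.044), TCP1 (-0.0060), UNC45A (-0.087) and XBP1 (-0.24); Agilent's log ratios gave -1.35 for DDIT3. Listed genes called after BUCY, 22 as reported, numbered 3 with median centring, 12 with slide as a fixed block, 5 with only the groups compared, 5 without arrays whose title has a suffix, 8 without BUCY treated arrays 2 and 3 and 1 with both this and median centring. After DOX, 1 as reported, they numbered 0 with median centring or Cy5 alone, 2 with slide as a block, 8 with the other experiment left out, 10 when arrays were weighted, 7 without those arrays and 2 with median centring as well. For the difference, 13 as reported, they numbered 0 with median centring, 4 with Cy5 alone, 3 without suffixed arrays, 7 without those arrays and 1 with median centring as well. Leaving out each array gave 0 to 1 after DOX, 11 to 25 after BUCY, 9 to 21 for the difference and 24 to 33 between untreated groups. Over all tested genes the counts ran from 89 to 1279 after DOX, 383 to 6290 after BUCY, 91 to 2392 for the difference and 3852 to 7642 between untreated groups. HSPD1 after BUCY ranged from 0.29 without untreated piglet 4 to 0.61 without treated piglet 3. Apart from what the construction of an alternative shows, the cause was not tested. Slide 4 holds only BUCY treated array 2, which slide as a fixed block takes out.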
